A study of Mus musculus with 8 samples.

Results

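The 39 Hox genes of the mouse lie in 4 clusters. Of these genes, 11 (28.2%) had a DSB peak summit within 1 kb of a TSS in Chd1 KO ES cells. Over all protein-coding genes the share was 15.8%, and at the GC content of the Hox promoters it was 24.5%. The study used a window from 1 kb upstream to 100 bp downstream for its DSB-prone genes, with peaks assigned by the HOMER software. In that window, with summits assigned as in this report, 2 of the 39 Hox genes had a summit, beside 9.47% of all genes. In control cells none of the Hox genes had a summit within 1 kb of a TSS, nor did any other protein-coding gene. Of the 11 Chd1 KO summits within 1 kb, 8 fell inside coding exons (72.7%, beside 15.3% of the summits near all protein-coding TSSs), a difference that was not tested. The median summit lay 490 bp downstream of the TSS. The Hoxd cluster held 6 of the 11 genes, the Hoxb cluster none.

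The genes were chosen by name, as all protein-coding genes of the GENCODE M1 annotation (mm9) called Hoxa, Hoxb, Hoxc or Hoxd plus a number. This gave 39 genes of the 22219 protein-coding genes with a TSS, in 40 gene records because Hoxa3 has a pair of them. The Hoxa cluster has 11 genes, Hoxb 10, Hoxc 9 and Hoxd 9. No measured value was used to choose them.

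DSB-seq was done on mouse ES cells without Chd1, a chromatin remodeler. Chd1 KO cells (Chd1Δ/Δ) have both alleles deleted, and control cells (Chd1fl/Δ) keep a floxed allele beside a deleted one, so both genotypes carry the deletion and differ in the remaining allele. Each genotype had 2 biological replicates, which the authors combined before they called peaks. In the assay, ends of broken DNA are tagged with biotin by terminal transferase, captured and sequenced, and the study asked where breaks build up when Chd1 is lost. A peak is a stretch where captured reads exceed the local background, and its summit is the position with the most reads. Because there is 1 list of peaks per genotype, no value below has a replicate error and no difference between the genotypes was tested. Intervals are Wilson 95% intervals, the limit given for a count of 0 is 3 counts of the total, and both cover counting error only. The lists hold no expression values, so neither the identity of the cells nor the loss of Chd1 could be checked from them.

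Hox genes encode homeodomain transcription factors that give cells along the body axis their regional identity. Within a cluster the genes stand in the order in which they are used from head to tail, and low-numbered paralogs act more anteriorly than high-numbered ones. In ES cells the clusters are mostly silent, covered by the Polycomb mark H3K27me3, and many of their promoters also carry H3K4me3, the mark that the chromodomains of Chd1 bind. These marks were not measured in the lists used here.

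The sequence under most of the Hox peaks was rich in G and C. The longest stretch without A or T under 8 of the peaks is shown here to let the range be seen, from repeats of GGC at Hoxd11, Hoxd8 and Hoxb3 to a short stretch without such a repeat at Hoxd1. It stands in capitals with 10 flanking bases on each side in lower case, 5′ to 3′ on the strand of the Hox genes, on mm9. The peak of Hoxa13 lies upstream of its TSS, the one named Hoxb lies between Hoxb13 and Hoxb9, and the others lie in coding exons.
Hoxd11, chr2:74520683-74520728, plus strand: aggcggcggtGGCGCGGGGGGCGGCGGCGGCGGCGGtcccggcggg
Hoxd8, chr2:74543636-74543682, plus strand: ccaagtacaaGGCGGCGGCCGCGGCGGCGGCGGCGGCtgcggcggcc
Hoxd4 and Hoxd3, chr2:74565515-74565551, plus strand: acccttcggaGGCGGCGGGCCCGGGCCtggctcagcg
Hoxd1, chr2:74601742-74601772, plus strand: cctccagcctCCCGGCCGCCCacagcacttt
Hoxa4, chr6:52141420-52141458, minus strand: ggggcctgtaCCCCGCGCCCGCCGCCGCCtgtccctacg
Hoxa13, chr6:52210973-52211011, minus strand: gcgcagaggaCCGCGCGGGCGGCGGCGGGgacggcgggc
Hoxb3, chr11:96206913-96206960, plus strand: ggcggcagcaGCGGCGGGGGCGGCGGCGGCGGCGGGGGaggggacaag
Hoxb, chr11:96107361-96107401, plus strand: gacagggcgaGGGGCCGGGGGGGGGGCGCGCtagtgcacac

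In Chd1 KO, 11 of the 39 Hox genes (28.2%, interval 16.5% to 43.8%) had a summit within 1 kb of a TSS. Over all protein-coding genes it was 3501 of 22219 (15.8%). In control, 0 of 39 Hox genes had one, which allows a share of up to 7.69%, and the share over all protein-coding genes was 0% as well, which allows up to 0.0135%. The whole control list has 54 peaks against 5671 in Chd1 KO, although the combined libraries were of similar depth, with 27600000 and 29800000 reads estimated from the lowest background. The control summit nearest to a Hox cluster lay 7.23 Mb from Hoxb, and those nearest to the other clusters lay 19.4 to 46.3 Mb away. A control site too weak to be called would not appear in the list. The weakest control peak had a −log10 p-value of 7.13, and 10 of the 11 Chd1 KO summits at Hox TSSs were at or above that value, all but the one at Hoxd1 (6.10).

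**Figure D1:**
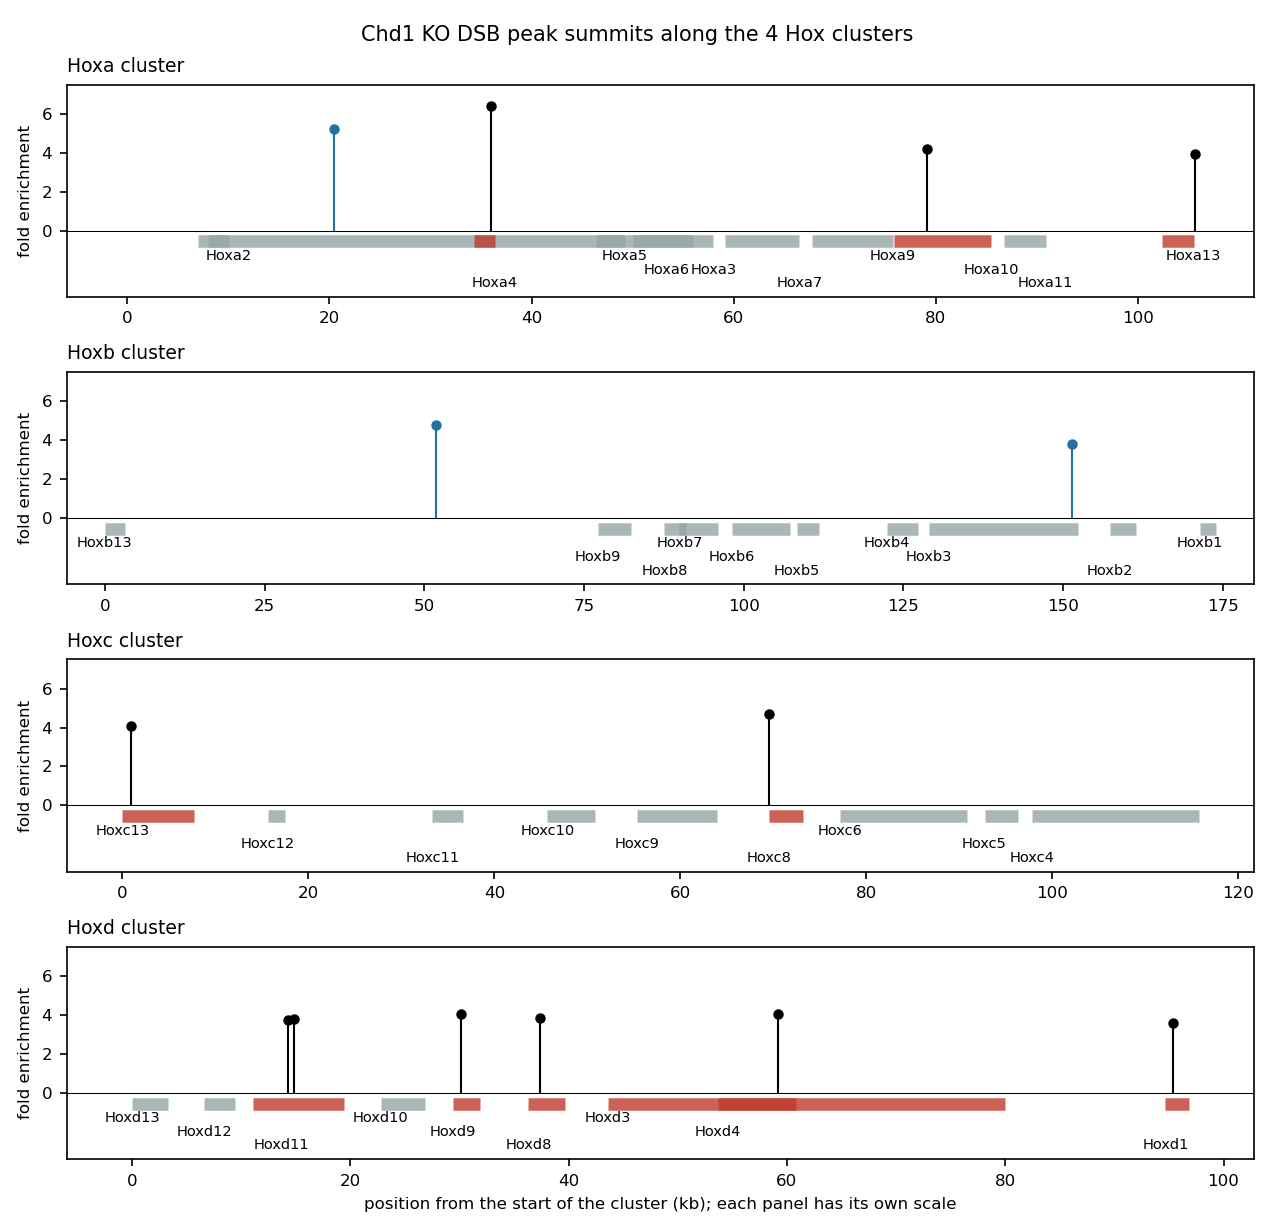
Chd1 KO summits along the Hoxa, Hoxb, Hoxc and Hoxd clusters, with position from the cluster start in kb on the horizontal axis and fold enrichment as the height of each stem. Bars are named genes, red with a summit within 1 kb of a TSS and grey without, black stems lie within 1 kb of a Hox TSS and blue stems do not; the Hoxd panel holds 6 stems, all black, and the Hoxb panel 2, both blue.

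The clusters differed in how many genes had a summit. In Hoxd it was 6 of 9 genes (66.7%, interval 35.4% to 87.9%), which were Hoxd1, Hoxd3, Hoxd4, Hoxd8, Hoxd9 and Hoxd11. In Hoxa it was 3 of 11 (27.3%, 9.75% to 56.6%), which were Hoxa4, Hoxa10 and Hoxa13, and in Hoxc 2 of 9 (22.2%, 6.32% to 54.7%), which were Hoxc8 and Hoxc13. In Hoxb it was 0 of 10, which allows up to 30.0% by the limit of 3 counts. The intervals of Hoxa, Hoxc and Hoxd overlap one another, and neighbouring genes are not independent, since Hoxd3 and Hoxd4 share a single peak.

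Promoter GC content differed between the clusters in the same order at its ends. Measured 1 kb to each side of the outermost TSS, median GC content was 61.9% for Hoxd genes, 55.5% for Hoxc, 54.7% for Hoxa and 52.3% for Hoxb. For a reference, each gene was given the share of all protein-coding genes with a summit in its own band of 5 percentage points of GC. Summed over a cluster this came to 3.21 genes for Hoxd, where 6 had a summit, and to 1.58 genes for Hoxb, where none did. For Hoxa it was 2.71 genes beside 3 observed, and for Hoxc 2.06 beside 2. Over all 39 genes it came to 9.56 genes, or 24.5%, beside the 11 observed. The share of Hox genes with a summit therefore lay near that of genes of like GC content, which lies inside the interval given above.

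**Figure D2:**
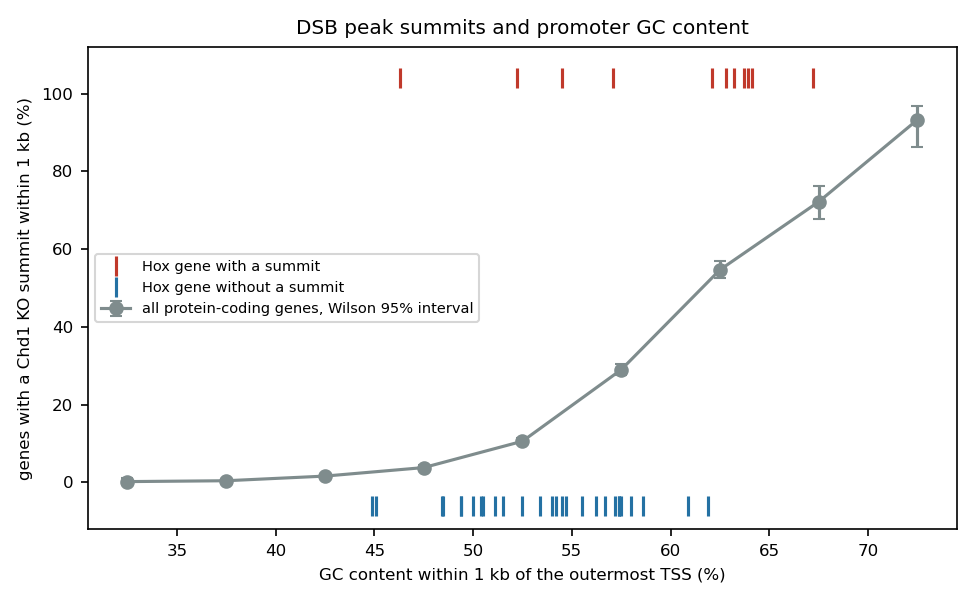
Share of protein-coding genes with a Chd1 KO summit within 1 kb of a TSS (percent, with Wilson 95% intervals) by GC content within 1 kb of the outermost TSS, in bands of 5 percentage points with at least 20 genes. Ticks above and below mark the Hox genes with and without a summit; the share climbs from 3.82% at 45% to 50% GC to 54.7% at 60% to 65%, where 6 of the 8 Hox genes had a summit.

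Hox genes with a summit had promoters with a median GC content of 62.8% (46.3% to 67.2%), and those without one 54.1% (44.9% to 61.9%). The difference between the medians was 8.70 percentage points, and the ranges overlap widely. Over all protein-coding genes the medians were 58.7% with a summit and 49.9% without. At 60% to 65% GC, 6 of 8 Hox genes had a summit, against 54.7% of all genes in that band. At 55% to 60% it was 1 of 10 against 29.0%, and at 50% to 55% it was 2 of 12 against 10.6%. At 45% to 50% it was 1 of 7 against 3.82%, and that gene was Hoxd4, with 46.3%. Hoxa10 (52.2%) and Hoxd3 (54.5%) were the others with a summit and less than 55% GC. In each of these 3 genes the peak lies at a TSS inside the gene rather than at the outermost one. Around that inner TSS, GC content was 54.9% for Hoxd4, 61.0% for Hoxa10 and 53.2% for Hoxd3.

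The genes without a summit ran from 44.9% GC at Hoxb4 to 61.9% at Hoxd13, which in the embryo patterns digits and the most caudal structures. Hoxd13 also has a stretch of 24 bp without A or T near its TSS, so neither measure separated it from its neighbours with a summit. In the Hoxa cluster the lowest among genes without a summit was Hoxa9 (48.5%), and in Hoxc the extremes were Hoxc6 (49.4%) and Hoxc10 (57.5%). Hoxb9 (60.9%) was the highest in Hoxb, and Hoxd10 (49.4%) the lowest without a summit in Hoxd.

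**Figure D3:**
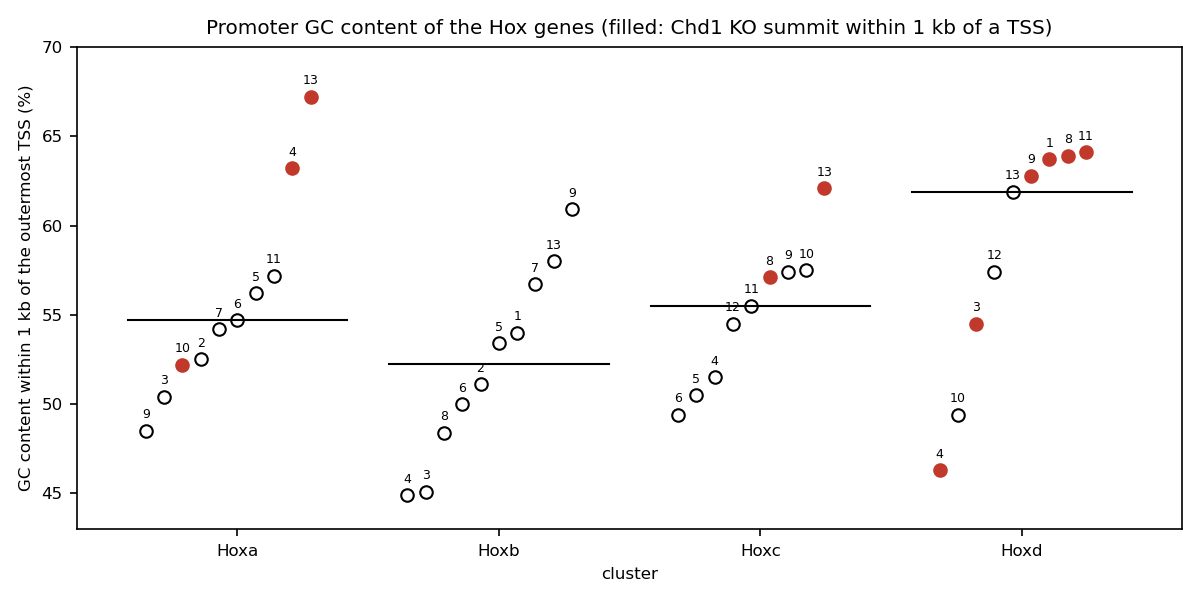
GC content within 1 kb of the outermost TSS (percent) for Hox genes, by cluster, with the paralog number beside each point and the cluster median as a line. Filled points had a Chd1 KO summit within 1 kb of a TSS; 4 of the 6 filled Hoxd points lie above the cluster median of 61.9%, and no Hoxb point is filled.

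GC content was also measured in short windows around every TSS of a gene, not the outermost alone. The 200 bp with the highest GC content within 1 kb of any TSS of a gene had 76.5% to 87.0% GC in the 11 genes with a summit (median 80.0%), and 61.0% to 80.5% in the 28 without (median 72.2%). The lowest value with a summit, 76.5% at Hoxc8, was taken as the cutoff, so by construction no Hox gene below it had one. Of the 15 genes at or above it, 11 had a summit. The other 4 were Hoxa5 (77.5%), Hoxb7 (77.5%), Hoxb9 (80.0%) and Hoxd13 (80.5%). Genes in general showed the same dependence. A summit was present at 2.98% of all protein-coding genes whose richest 200 bp had 70% to 75% GC, at 22.9% between 75% and 80% and at 71.1% between 80% and 85%. For the Hox genes these counts were 0 of 11, 4 of 10 and 4 of 6. At these shares 9.51 Hox genes would have had a summit, which is again near the 11 observed. The richest window overlapped a peak in 7 of the 11 genes. It did not at Hoxa13, Hoxc13, Hoxd1 and Hoxd8, where the peak lay beside it.

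The Hox summits lay further into the gene than most summits at other genes, a difference that was not tested because members share peaks and clusters. The 2 upstream of a TSS were at Hoxa13 (−156 bp) and Hoxc8 (−21 bp). The other 9 lay downstream, between 185 bp at Hoxd11 and 931 bp at Hoxc13. All 9 were more than 100 bp downstream (81.8% of 11), while 46.2% of the 3527 summits near protein-coding TSSs were. The median position was 490 bp downstream for the Hox summits and 75.0 bp for the 3527. In coding exons lay 8 of the 11 (72.7%), compared with 15.3% of the 3527. Of the remaining Hox summits, 2 lay in intergenic sequence just upstream of a gene and 1 in an intron, that of Hoxc13. The richest 200 bp described above lay in a coding exon in 22 of the 39 Hox genes. These were 9 of the 11 genes with a summit and 13 of the 28 without. The part of this gene structure in the position of the summits was not tested. Hox genes are short, with a median transcript length of 3.65 kb against 13.3 kb for all protein-coding genes, and the part of gene length in the position of these summits was not tested. In a narrower window, which ended 100 bp past the TSS and began 1 kb before it, only Hoxa13 and Hoxc8 had a summit, 2 of 39 genes beside 9.47% of all genes. The study used this narrower window to define its DSB-prone genes, but assigned peaks to genes with HOMER, so its list can differ from these counts. Within 500 bp there were 6 of 39, beside 14.4% of all genes, so at this width the Hox genes were near the share over all genes. Genes of like GC content were not compared at this width.

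**Figure D4:**
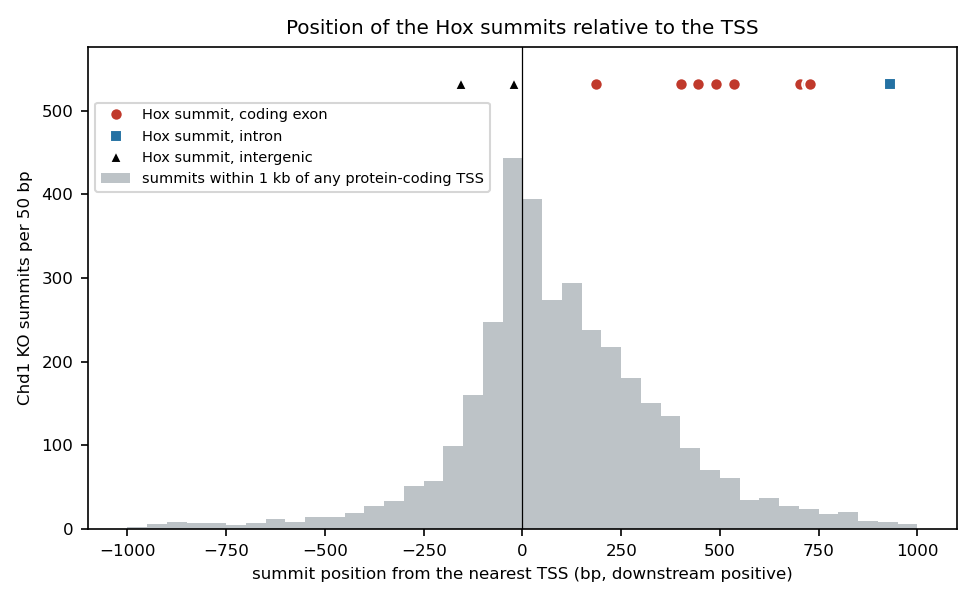
Position of Chd1 KO summits relative to the nearest protein-coding TSS (bp, downstream positive), as a histogram of the 3527 summits within 1 kb of a TSS in steps of 50 bp, with the 11 Hox summits as symbols above it by annotation. The histogram is highest at the TSS, while the 8 Hox summits in coding exons (circles) lie 185 to 728 bp downstream.

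Hoxa4, a member of the anterior part of its cluster, had the strongest Hox peak. At the summit, 401 bp downstream of the nearest TSS and in a coding exon, 33 extended reads gave a fold enrichment of 6.42 over the local background, a −log10 p-value of 18.7 and a −log10 q-value of 13.9. This was above 94.2% of all Chd1 KO peaks. The peak (chr6:52141144-52141582) spans 439 bp with 81.5% GC. Hoxa10, which patterns the uterus and the lumbar spine, had a peak of 4.18-fold with 20 reads, 490 bp downstream in a coding exon. Hoxa13, a gene for digits and the genital tubercle, had one of 3.93-fold with 17 reads. Its summit lies at −156 bp from the outermost TSS and just outside the span of the cluster.

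Most Hox peaks at TSSs had a low fold enrichment for this list. Fold enrichment at the 11 summits had a median of 4.03 (3.59 to 6.42), and 9 of the 11 lay below 4.56, the median of all 5671 Chd1 KO peaks. They had 15 to 33 reads at the summit (median 19.0), where the caller needed at least 13 in this library. At a minimum fold enrichment of 4, the genes with a summit were 7 of 39, beside 12.6% of all genes, and Hoxa13, Hoxd1, Hoxd8 and Hoxd11 were no longer among them.

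In the Hoxc cluster the peak with the higher fold enrichment was that of Hoxc8, with 4.67-fold and 19 reads at a summit at −21 bp from the TSS. Hoxc8 acts in the thoracic skeleton and motor neurons. At Hoxc13, which is needed for hair and nails, the summit had 4.09-fold and 20 reads and lay 931 bp downstream, the closest to the limit of 1 kb on its inner side. The closest on its outer side was a summit at Hoxb3, 1.93 kb from the nearest TSS.

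The Hoxd cluster had the densest peaks, all of low fold enrichment. Hoxd11, a gene of the forearm and kidney, had a pair of summits in a coding exon, 185 and 703 bp downstream of the same TSS. They reached 3.75-fold and 3.80-fold, each with 19 reads. Hoxd9 had 4.03-fold with 16 reads, and Hoxd8 3.83-fold with 19 reads. The peak shared by Hoxd3 and Hoxd4 had 4.05-fold with 17 reads, the highest fold enrichment of the cluster, and its summit lay 445 bp downstream of the Hoxd4 TSS in a Hoxd4 coding exon and 791 bp downstream of a Hoxd3 TSS. Hoxd1, at the other end of the cluster, had the weakest of all, with 3.59-fold, 15 reads and a −log10 q-value of 2.78. The 6 summits of the cluster thus lay between 3.59 and 4.05, and none of them reached the median of all Chd1 KO peaks.

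Along the clusters, 13 Chd1 KO summits and 0 control summits fell inside the spans of the Hox genes, which add up to 492 kb. This was 2.64 summits per 100 kb, beside 0.508 in flanks of the same length on each side and 0.222 over the genome. The flanks include the summit of Hoxa13, which lies just outside the Hoxa span. The density was 6.20 per 100 kb in Hoxd (chr2:74506367-74603200), 2.84 in Hoxa (chr6:52105366-52210874), 1.73 in Hoxc (chr15:102751534-102867274) and 1.15 in Hoxb (chr11:96055630-96229570). The GC content of the whole spans was close, from 48.9% in Hoxb to 50.0% in Hoxa. The spans were drawn around genes, with 39 Hox genes in 492 kb, beside 22219 protein-coding genes in 2559 Mb of the genome. Of the 13 summits, 10 lay within 1 kb of a Hox TSS. The part of gene density in these values was not tested.

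Inside the clusters, 3 of the 13 summits were more than 1 kb from a Hox TSS. In Hoxa, a peak in an intron of Hoxa3 (chr6:52125605-52125988) had 5.24-fold with 27 reads, and its summit was 562 bp downstream of the start of the lincRNA 2700086A05Rik. In Hoxb, the peak with the highest fold enrichment (chr11:96107222-96107526) had 4.78-fold with 19 reads. It is intergenic, and its GC content of 49.8% was the lowest of the Hox peaks, which otherwise had 68.0% to 81.5%. The other Hoxb peak (chr11:96206863-96207062) had 3.78-fold with 16 reads in a coding exon of Hoxb3. None of the cluster microRNAs Mir10a, Mir10b, Mir196a-1, Mir196a-2, Mir196b and Mir615, several of which target Hox transcripts, had a summit within 1 kb of its start. Over all protein-coding genes the share was 15.8%, and so few microRNAs cannot be told apart from it.

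Long stretches of G and C lay under peaks about as often in the clusters as elsewhere. In the clusters, 39 of 288 stretches of at least 12 bp (13.5%, interval 10.1% to 18.0%) had their centre under a Chd1 KO peak, beside 11.7% over the genome. For stretches of at least 20 bp it was 8 of 32 (25.0%, 13.3% to 42.1%) beside 27.7%. Of the 14 Hox genes with such a stretch within 1 kb of a TSS, 8 had a summit, and of all protein-coding genes with one 55.8% did. Hox genes had these stretches more often than all protein-coding genes, with 35.9% against 18.0%. They did not stand out from related families. Homeobox genes outside the clusters and forkhead genes, both described below, each had such stretches in a higher share of genes than the Hox genes.

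The peaks did not always sit on the longest stretch. The longest one within 1 kb of a TSS was under a peak in 5 of the 11 genes, namely Hoxa10, Hoxd4, Hoxd8, Hoxd9 and Hoxd11. At Hoxa4 the longest was 38 bp in an intron, and the summit lay 496 bp from it. At Hoxd1 it was 33 bp in intergenic sequence, 1261 bp from the nearest summit, and the stretch under the peak itself measured 11 bp. A stretch of at least 20 bp was found under 3 of the 11 Hox peaks (27.3%), and under 51.2% of the peaks near protein-coding TSSs. The count is small, and the Hox peaks were narrower, with a median width of 249 bp against 318 bp. The part of peak width in this difference was not tested. The GC content of the peaks was similar in both sets, with medians of 76.0% and 76.7%.

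The codons under the peaks were read from the coding sequence. Codons of the forms GCN, GGN and CCN, which encode alanine, glycine and proline, made up 40.5% to 68.8% of the codons in the 8 peaks with a summit in a coding exon (median 54.9%). In the rest of the same coding sequences they made up 19.2% to 37.3% (median 31.1%). For each Hoxd11 peak, the rest includes the codons of the other Hoxd11 peak. In all 8 peaks the share was higher inside than outside. At Hoxd11 it was 63.0% in the peak nearer the TSS and 68.8% in the other, against 37.3% and 36.8% outside each. At Hoxa4 it was 55.6%, or 75 of 135 codons, against 24.7%, and at Hoxd4 54.2% against 19.2%. The margin was narrowest at Hoxd1, with 40.5% against 34.4%. These codons have G or C at both of their leading positions, so a peak rich in G and C holds more of them by its composition.

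**Figure D5:**
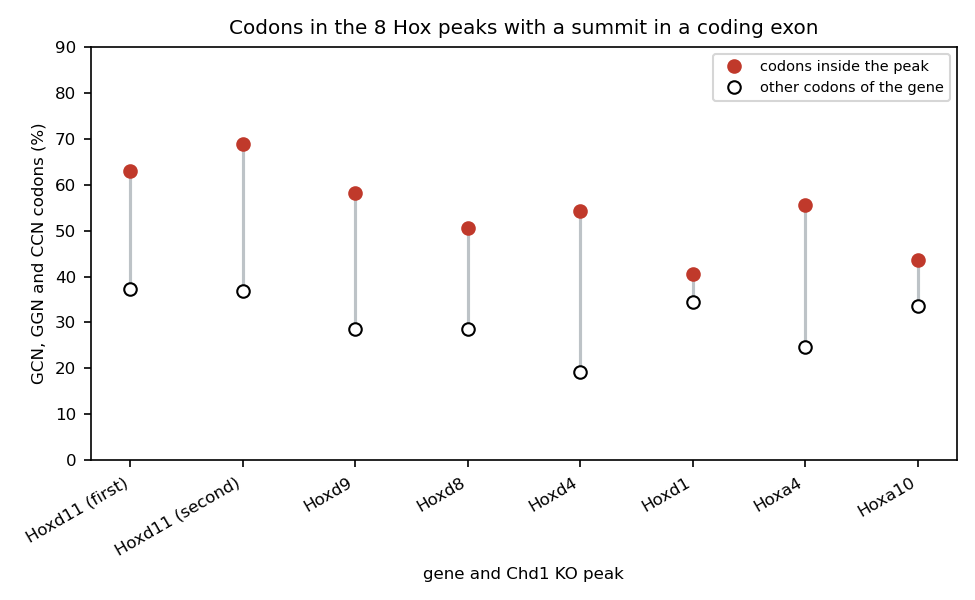
Share of GCN, GGN and CCN codons (percent) inside each of the 8 Hox peaks with a summit in a coding exon (filled) and in the other codons of the same gene (open). At Hoxd11 each open point includes the codons of the other peak. Each filled point lies above its open point, from 40.5% against 34.4% at Hoxd1 to 68.8% against 36.8% at the second Hoxd11 peak.

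Over whole coding sequences, which for 8 of the peaks include the codons just described, these codons made up 19.0% to 42.9% of the coding sequence in the 11 genes with a summit (median 36.0%), and 16.5% to 38.6% in the 28 without (median 25.5%). The lowest with a summit was Hoxc8, whose peak lies at the TSS and not in coding sequence. The highest without a summit within 1 kb was Hoxb3, whose peak lies in a coding exon 1.93 kb from a TSS.

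By paralog number, a summit was present at 4 of 12 genes of groups 1 to 4, at 2 of 11 of groups 5 to 8 and at 5 of 16 of groups 9 to 13. In paralog group 4 both Hoxa4 and Hoxd4 had one, in group 8 Hoxc8 and Hoxd8, and in group 13 Hoxa13 and Hoxc13. No member of groups 2, 5, 6, 7 and 12 had one. Counts of this size do not set the anterior and the posterior genes apart.

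Other homeobox genes, which share the DNA-binding domain but lie outside the clusters, had a summit at 31 of 119 genes (26.1%), with a median promoter GC content of 57.8%. Forkhead genes, another family of developmental transcription factors, had one at 20 of 42 (47.6%), with 58.3%. The Hox genes, at 28.2% and 54.7%, were close to the other homeobox genes.

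Genes that work with or upon the Hox genes gave these counts, to be read beside the 15.8% of all protein-coding genes. Of the TALE cofactors that bind DNA with Hox proteins, 3 of 9 had a summit, which were Pknox1 (5.68-fold), Pbx3 (4.23-fold) and Pbx2 (4.04-fold). These cofactors are also counted among the other homeobox genes above, as are the Cdx and ParaHox genes below. Of the Polycomb genes, which keep the clusters silent, 15 of 30 had one (50.0%), with Pcgf3 (5.98-fold), Cbx7 (5.84-fold), Jarid2 (5.81-fold) and Ezh1 (4.65-fold) the strongest. Of the Trithorax and H3K4 methylation genes, which oppose them, 7 of 15 found in the annotation had one (46.7%), led by Dpy30 (5.74-fold), Wbp7 (5.36-fold), Setd1b (5.34-fold) and Mll1 (5.04-fold). Of the genes of the retinoid pathway, which acts on anterior Hox genes, 3 of 17 had one (17.6%), namely Aldh1a2 (5.61-fold), Rxra (4.46-fold) and Rxrb (3.71-fold). Of the neighbours of the clusters with the Cdx and ParaHox genes, 3 of 17 had one, and these were Skap1 (5.66-fold), Cdx1 (5.24-fold) and Gsx1 (3.85-fold). The median promoter GC content was 57.8% for the Polycomb list and 58.1% for the Trithorax list, above the 54.7% of the Hox genes, and the part of GC content in these counts was not tested.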

How the data were processed

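DSB-seq of Chd1 KO and control mouse ES cells was studied from the deposited lists of peaks, 1 per genotype. Per the study's methods, they mapped reads to mm9 with Bowtie2, dropped reads of mapping quality under 13, limited each position to 1 read and pooled both replicates. MACS2 then called peaks on reads extended to 200 bp with a cutoff of 0.05 on the q-value, and blacklisted regions were taken out. The deposited fold enrichment is a ratio of the reads at the summit to the local background of the same library. The deposited −log10 p-value and −log10 q-value were computed within each library, and the deposited score restates the q-value. The Flag and RNA Pol II ChIP-seq samples were not analysed here.

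The extended reads under a summit were computed back from its fold enrichment and Poisson p-value, which returned the p-values to within 7.25e-05 (Chd1 KO) and 1.35e-04 (control) on the −log10 scale. Tested on simulated data, this was right for 500 of 500 peaks, the matching of summits to TSSs for 400 of 400 and the sequence features for 200 of 200. Summits were assigned to every gene with a protein-coding TSS within 1 kb, and a cluster ran from the lowest start to the highest end of its genes. Sequence came from the mm9 genome and transcripts from GENCODE M1. A stretch counted as under a peak when its centre was. Software was samtools 1.23.1 and Python 3.11.15 with pysam 0.24.0, pandas 2.3.3, NumPy 2.4.6, SciPy 1.17.1 and Matplotlib 3.10.9.

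The text names each Hox gene with a summit, in each cluster the strongest peak and the genes of highest and lowest promoter GC without a summit, the summits next to the 1 kb limit, and up to 4 genes per pathway list. An item meeting these criteria is not reported here and is left out of the plots that name genes, while counts and medians include it. Genes named for their richest 200 bp, stretches or codons were chosen after their values were seen. The genes and lists were chosen with earlier results of these data known. Alternatives changed the window, the position taken for a peak, the TSSs, the thresholds, the cluster spans and the GC measure.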

Additional observations from a re-analysis of the deposited data

How the results depend on the processing

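The 11 Hox genes with a Chd1 KO summit within 1 kb became 6 within 500 bp (all genes 14.4%), 2 from 1 kb upstream to 100 bp downstream (9.47%), 7 at the outermost TSS only (14.5%) and 7 at a fold enrichment of at least 4 (12.6%). Of 39 genes, 6 and the 7 at the outermost TSS are near those shares. The count of 2 is lower and the 7 at the fold enrichment threshold higher, each by only a few genes. No interval was computed for these settings, so these counts do not set the Hox genes apart from all genes. The last setting also left 8 of the 13 summits in the clusters. The windows and the threshold are narrower by construction, and Hoxd3, Hoxd4, Hoxd8 and Hoxa10 were lost at the outermost TSS because their summits lie at inner ones. The other settings gave 10 to 12 genes and 11 to 14 summits in the clusters, among them a minimum −log10 p-value equal to that of the least significant peak in control, added after seeing the data (10 genes and 11 summits). In control both counts were 0 in every setting run. The difference in median promoter GC was 7.39 points within 500 bp of the TSS and 9.07 as a mean over TSSs. The share at like GC content was 25.0% with bands of 2 points, 21.2% from genes with 1 TSS and, with the richest 200 bp (added after seeing the data), 24.4%. No paired analysis was possible because the peak lists used here come from combined replicates, and for the same reason no replicate was left out. The reads of the single replicates were not analysed here. Sites with fewer than 13 extended reads are beyond the reach of the Chd1 KO list.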

Other observations

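Apart from 2700086A05Rik, non-coding genes of the clusters also started close to a summit. The start of Gm20440, a processed transcript of the Hoxd cluster, had the second Hoxd11 summit at −311 bp. That of 6720416L17Rik, a processed transcript on the opposite strand from Hoxd1, was in front of the Hoxd1 summit, which lay at −812 bp from it. Evx2, the homeobox gene next to Hoxd13, had its nearest summit 3.62 kb from its start.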
